A study of Mus musculus with 15 samples.

Results

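Acyl-CoA thioesterases hydrolyse acyl-CoA esters to free fatty acids and coenzyme A (CoA), the reverse of the reaction run by acyl-CoA synthetases. In hepatocytes they act in the cytosol, in mitochondria and in peroxisomes, where they set how much fatty acyl-CoA and free CoA each compartment holds. Several of their genes are known to be induced in the liver by fasting and by ligands of PPAR alpha, the nuclear receptor that controls fatty acid oxidation. The 8 genes described are Acot1, Acot2, Acot3, Acot4, Acot8, Acot9, Acot12 and Acot13, taken by symbol from a table of 55984 symbols. They were chosen with fold changes of these same libraries known, so their values are given as a description and no test of them is offered. All 8 passed the filter on low counts that left 17488 genes.

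The libraries came from sorted hepatocytes of WT adult male C57BL/6JJcl mice without treatment. Live hepatocytes were stained with the DNA dye Hoechst and sorted by DNA content into 2n-whole (diploid) and 4n-whole (tetraploid) cells. Tetraploid cells were also sorted by the height of the Hoechst pulse into 4n-top, enriched in cells with 1 tetraploid nucleus (1x4n), and 4n-bottom, enriched in cells with 2 diploid nuclei (2x2n). The enrichment was incomplete, and 4n-top also held binucleated cells. Mice 1 to 4 each gave a 2n-whole, a 4n-whole and a 4n-bottom library, and mice 2, 3 and 4 gave a 4n-top library, which makes 15 libraries. The study left out the 4n-top library of mouse 1 for poor RNA quality.

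Libraries held 22049498 to 42096421 counts. Levels are CPM, each count scaled to the TMM-adjusted size of its library, and 3 counts corresponded to 0.0693 to 0.12 CPM. The 8 hepatocyte markers, albumin among them, summed to 98200 to 131000 CPM in every population. Summed markers of other liver cells were low, at 6.17 to 37.1 CPM for 10 endothelial genes, 0.374 to 9.02 for 9 Kupffer cell genes, 1.99 to 5.74 for 8 stellate cell genes and at most 47.4 for 6 biliary genes. The biliary sum was 34.7 to 47.4 CPM in 2n-whole and at most 31.2 CPM in 4n-whole libraries. In sorted bulk RNA, fewer cells of a type and less of an RNA per cell cannot be told apart.

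Acot2, Acot1, Acot4 and Acot3 lie in this order in a cluster on mouse chromosome 12 (GRCm39, GENCODE M39), followed by Acot5 and Acot6. Acot1 spans chr12:84056256-84065145, Acot2 chr12:84034428-84040647, Acot4 chr12:84085081-84095375 and Acot3 chr12:84098918-84107176, all on the plus strand. The other members are single genes, with Acot8 at chr2:164631348-164647353 on the minus strand, Acot9 at chrX:154045429-154175865 on the plus strand, Acot12 at chr13:91889396-91935688 on the plus strand and Acot13 at chr13:24998351-25015547 on the minus strand. The clustered genes descend from gene duplication, and the coding bases show how close the copies are. Acot1 and Acot2 were identical at 1178 of 1236 aligned coding bases (95.3%), with a longest unbroken identical run of 273 bases. The other pairs in the cluster were 73.8% to 85.4% identical. The first 90 coding bases of Acot1 (chr12:84056284-84056373) are shown above the aligned bases of its 3 neighbours, since here the copies can be told apart, and capitals mark each base that differs from Acot1.
Acot1: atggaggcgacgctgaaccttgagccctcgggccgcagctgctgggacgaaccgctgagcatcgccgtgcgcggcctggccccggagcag
Acot2: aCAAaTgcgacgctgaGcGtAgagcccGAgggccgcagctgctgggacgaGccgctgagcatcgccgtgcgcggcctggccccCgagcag
Acot3: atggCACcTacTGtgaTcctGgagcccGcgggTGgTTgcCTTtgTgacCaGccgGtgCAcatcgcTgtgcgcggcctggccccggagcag
Acot4: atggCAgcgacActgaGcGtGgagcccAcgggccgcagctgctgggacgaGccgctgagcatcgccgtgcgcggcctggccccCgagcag

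In this window Acot2 differed from Acot1 at 11 bases, Acot4 at 9 and Acot3 at 23, and the second part of the window was close to identical in Acot1, Acot2 and Acot4. Acot2 has 1359 coding bases before its stop codon against 1257 in Acot1. Its reading frame starts upstream of the window, and the added start encodes the leader known to send the ACOT2 protein to mitochondria. At the other end of the reading frame the genes differ in the codons that can encode a peroxisomal targeting signal. The last 27 coding bases and the stop codon follow for the clustered members and for Acot8, with the last 3 codons before the stop in capitals.
Acot1: gagtgtttgcatgtgtctCCTAAAATAtaa
Acot2: ttccacaaacagttgggtAGCAAGAGTtag
Acot3: aaaaagaagacaatcccaGCAAAACTGtga
Acot4: acccacagcagagcctccTGTAGACTGtag
Acot8: aagcctcaggtgtcagagAGTAAGCTAtag

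**Figure D1:**
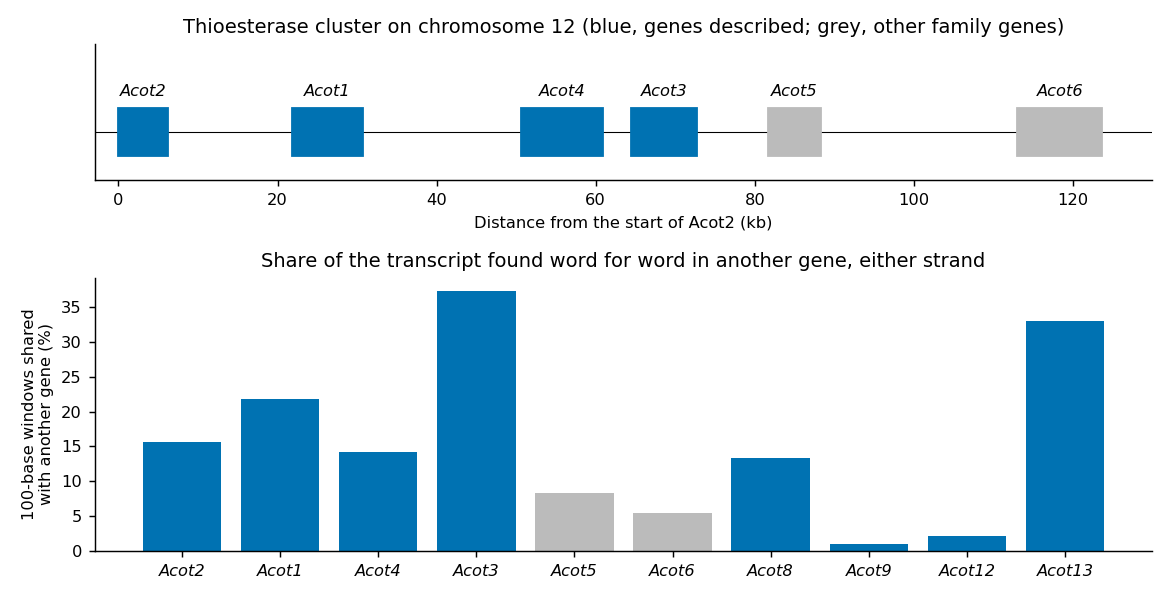
The upper panel maps the cluster on chromosome 12, with distance from the start of Acot2 in kb on the x axis and boxes for genes. The lower panel gives, for each gene, the percentage of 100-base windows of its canonical transcript that are also found in a transcript of another gene on either strand, highest for Acot3 (37.3%) and Acot13 (33%) and lowest for Acot9 (0.962%); blue marks the 8 genes described and grey Acot5 and Acot6.

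These copies share stretches as long as a read. Of the 100-base windows in the Acot1 transcript, 21.8% were found in another gene, most of them in Acot2. For Acot2 the share was 15.6%, and every such window was found in Acot1. The rule by which reads that fit both genes were counted is not given in the sources used here, so the division of reads between Acot1 and Acot2 is uncertain. In the deposited counts Acot1 held 70% to 93.3% of the reads of the pair. Acot3 shared 37.3% of its windows, most of them with Gm49366, a gene on the same strand that overlaps Acot4 and Acot3 and had 0 counts in all 15 libraries. Acot13 shared 33% of its windows with Tdp2 and Acot8 shared 13.4% with Snx21, both on the opposite strand, where only the strand of a read tells the genes apart. The kit marks strand, but the strand setting of the counting is not given in the sources used here. Acot4 shared 14.2% of its windows, most of them with 4732463B04Rik, on the opposite strand, and others with Gm49366. Acot12 (2.17%) and Acot9 (0.962%) shared few windows of this length, but Acot9 shared 20.1% of its 50-base windows, found in Acot10.

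The promoters of the closest pair are shown because the coding sequences are nearly the same while their levels were not. Each is the 250 bases before the annotated start, chr12:84056006-84056255 for Acot1 and chr12:84034178-84034427 for Acot2, on the plus strand, with CCAAT or its reverse complement in capitals.
Acot1: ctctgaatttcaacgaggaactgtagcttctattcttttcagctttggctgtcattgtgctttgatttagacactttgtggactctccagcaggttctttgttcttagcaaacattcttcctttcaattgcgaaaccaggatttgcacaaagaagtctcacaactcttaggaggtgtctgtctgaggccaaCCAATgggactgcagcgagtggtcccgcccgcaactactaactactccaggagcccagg
Acot2: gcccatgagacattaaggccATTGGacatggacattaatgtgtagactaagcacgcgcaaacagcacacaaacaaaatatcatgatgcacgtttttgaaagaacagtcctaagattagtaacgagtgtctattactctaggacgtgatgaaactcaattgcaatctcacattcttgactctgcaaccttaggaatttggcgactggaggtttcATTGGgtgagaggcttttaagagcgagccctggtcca

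At the same distance from the start, 62 of these 250 bases were identical (24.8%). This count allows no gaps, so a shift of a few bases would hide likeness, and it does not show how far the promoters differ. Motifs were searched on both strands in windows of this length at 21751 protein-coding genes. CCAAT was found in 36.5% of them and in 6 members, AGGTCA, a site recognised by nuclear receptors, in 13.1% and in Acot12 alone among the members, and GGGCGG in 36.3% and in Acot1, Acot8, Acot9 and Acot13. TATAAA was found in 11.9% of the windows and in Acot4 and Acot9. A pair of AGGTCA copies in the same direction with 1 base between them, the form bound by PPAR alpha, was found in 0.0368% of windows and CAAAGTCCA in 0.372%. No member held either in this window. Only exact matches were searched and both are rare, so nothing is read from their absence.

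Acot1, which encodes the cytosolic long-chain thioesterase, was the member that differed most steadily between populations. In 2n-whole libraries of mice 1, 2, 3 and 4 its level was 6.61, 8.75, 12.5 and 24.8 CPM. In 4n-whole libraries of the same mice it was 13.3, 15.7, 19.6 and 47.3 CPM. The 2 groups overlapped, yet each mouse was higher in its tetraploid library. In 4n-bottom libraries of mice 1 to 4 the level was 6.66, 11.3, 16.8 and 29.2 CPM, and in 4n-top libraries of mice 2, 3 and 4 it was 16.37, 30.6 and 41.5 CPM. Every 4n-top library was above the 4n-bottom and the 2n-whole library of its mouse. Over the 4 mice the mean was 13.2 ± 8.13 CPM (SD, n = 4) for 2n-whole, 24.0 ± 15.8 for 4n-whole and 16.0 ± 9.73 for 4n-bottom, and over 3 mice it was 29.5 ± 12.6 CPM (SD, n = 3) for 4n-top. Over the same mice 2 to 4 it was 15.3 ± 8.4 CPM for 2n-whole, 27.5 ± 17.2 for 4n-whole and 19.1 ± 9.17 for 4n-bottom (SD, n = 3 each).

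Fold changes come from an edgeR model with a term for each mouse, and standard errors (SE) are the size of the log2 fold change divided by the square root of the F statistic. For Acot1 the log2 fold change was 0.87 (SE 0.139) in 4n-whole against 2n-whole and 0.71 (SE 0.149) in 4n-top against 4n-bottom. It was 0.98 (SE 0.151) in 4n-top against 2n-whole and 0.27 (SE 0.139) in 4n-bottom against 2n-whole. The comparisons with 2n-whole share the 2n-whole libraries. On the log2(CPM + 0.5) scale, mice 1 to 4 differed by 0.95, 0.81, 0.63 and 0.92 between 4n-whole and 2n-whole. Mice 2 to 4 differed by 0.52, 0.85 and 0.5 between 4n-top and 4n-bottom. The gap between 4n-bottom and 2n-whole was smaller and uneven, at 0.01, 0.35, 0.42 and 0.23. The lines of the plot of Acot1 by mouse keep the order of the mice in every population, with mouse 4 highest throughout and mouse 1 lowest in the 3 populations it gave.

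**Figure D2:**
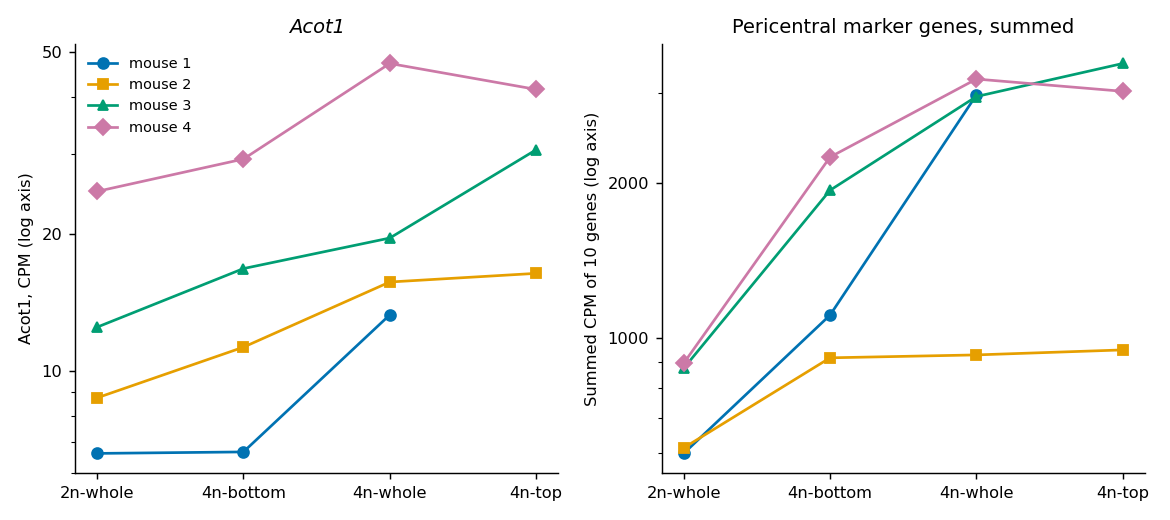
Left, CPM of Acot1 (log y axis) in each population (x axis), and right, the summed CPM of 10 pericentral marker genes (log y axis), with 1 line and marker shape per mouse. Acot1 ran from 6.61 CPM in the 2n-whole library of mouse 1 to 47.3 CPM in the 4n-whole library of mouse 4, and the pericentral sum ran from 598 to 3420 CPM, with that of mouse 2 between 613 and 950 CPM. By mean level, Cyp2e1 was the largest of the 10 genes in each population.

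Acot2, which encodes the mitochondrial counterpart of ACOT1, did not follow it between 4n-whole and 2n-whole. Its levels in mice 1 to 4 were 2.71, 3.74, 2.19 and 5.29 CPM in 2n-whole and 2.32, 3.69, 1.47 and 7.24 CPM in 4n-whole libraries, with 1 mouse higher and 3 lower. Its log2 fold change was -0.07 (SE 0.26). In 4n-bottom libraries the levels were 1.49, 4.2, 1.22 and 4.86 CPM, and in 4n-top libraries of mice 2 to 4 they were 5.7, 2.81 and 6.52 CPM. Acot2 was higher in 4n-top than in 4n-bottom in 3 of 3 mice, with a log2 fold change of 0.74 (SE 0.283), and the groups overlapped. When the counts of Acot1 and Acot2 were summed, which does not depend on how shared reads were divided between them, the log2 fold change was 0.69 (SE 0.134) in 4n-whole against 2n-whole, 0.71 (SE 0.145) in 4n-top against 4n-bottom, 0.86 (SE 0.147) in 4n-top against 2n-whole and 0.15 (SE 0.135) in 4n-bottom against 2n-whole. The summed level was 16.6 ± 9.23 CPM in 2n-whole and 27.6 ± 18.1 CPM in 4n-whole (SD, n = 4 each).

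**Figure D3:**
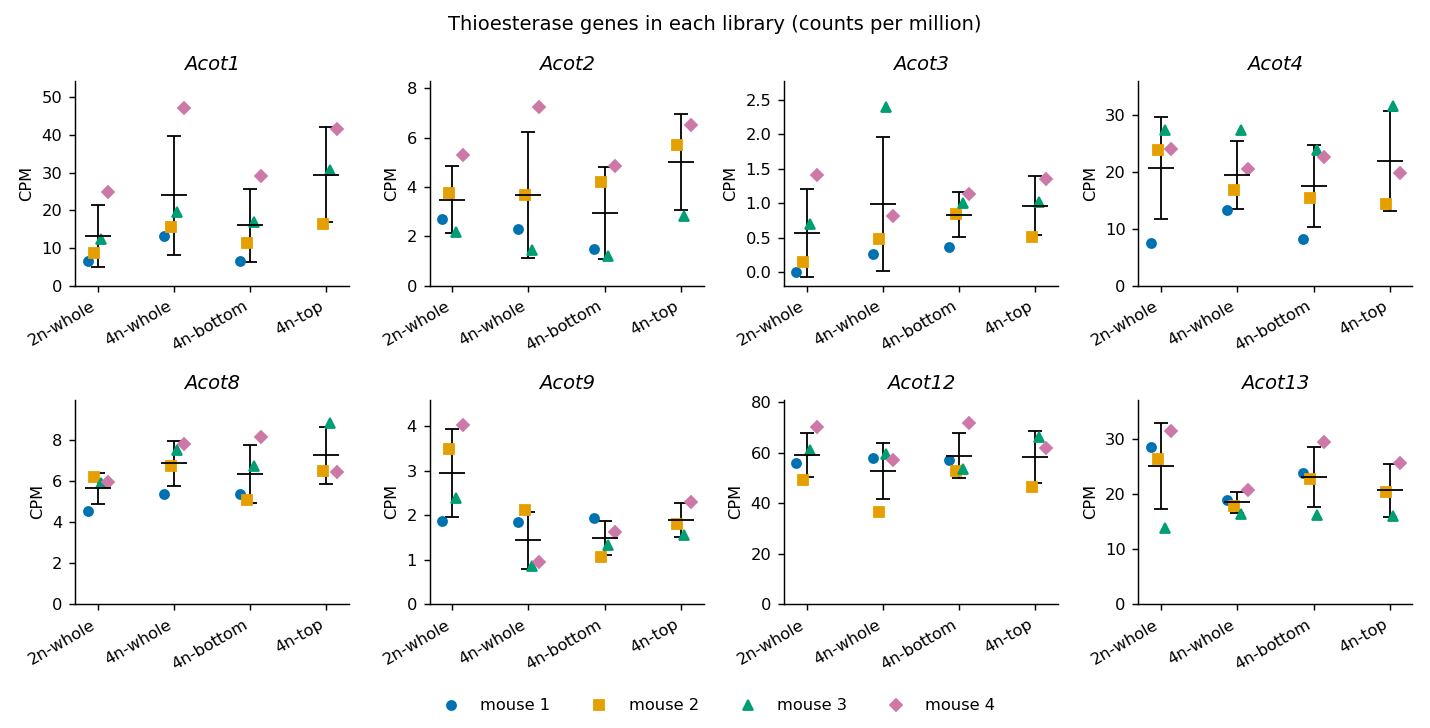
CPM of each of the 8 genes (y axis, a scale of its own in each panel) in the libraries of the 4 populations (x axis). Markers are libraries, with shape and colour for the mouse, and black bars give the mean ± SD, as in Acot1, whose 4n-top libraries lie between 16.37 and 41.5 CPM.

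The peroxisomal members Acot3, Acot4 and Acot8 act on acyl-CoA in the organelle that shortens very long and dicarboxylic fatty acids, and their products can leave it as free acids. Acot3, a thioesterase for long acyl chains, had few counts. It had 0, 5, 20 and 49 counts in 2n-whole libraries of mice 1 to 4 and 10, 12, 90 and 26 counts in 4n-whole libraries, which is 0 to 1.41 CPM and 0.257 to 2.4 CPM. In 4n-bottom libraries it had 13 to 43 counts and in 4n-top libraries 22 to 39. The library with 0 counts held fewer than the 3 counts taken as the limit, so Acot3 was not detectable there by these counts. How reads that fit both Acot3 and the overlapping Gm49366 were counted is not given in the sources used here, so Acot3 counts may be too low. The log2 fold change was 1.2 (SE 0.705) in 4n-whole against 2n-whole, with 3 of 4 mice higher, and -0.46 (SE 0.741) in 4n-top against 4n-bottom, where the sign turned without the term for mouse (0.196). These values do not place Acot3 in an order between populations.

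Acot4, which encodes a peroxisomal thioesterase for dicarboxylic acyl-CoAs such as succinyl-CoA, was at mean levels of 17.5 to 21.9 CPM in the 4 populations. In 2n-whole libraries of mice 1 to 4 it was at 7.52, 23.9, 27.4 and 24.0 CPM, and in 4n-whole libraries at 13.2, 16.8, 27.3 and 20.5 CPM. Mouse 1 was higher and the other 3 mice lower in 4n-whole. Its log2 fold change was 0.00 (SE 0.16) in 4n-whole against 2n-whole and 0.07 (SE 0.179) in 4n-top against 4n-bottom. Mouse 1 stood below the other mice in all 3 of its libraries, at 7.52 to 13.2 CPM.

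Acot8, a peroxisomal thioesterase with a broad range of substrates, differed by little, and not in one direction in every comparison. It was at 4.54, 6.19, 5.88 and 5.95 CPM in 2n-whole and at 5.35, 6.73, 7.51 and 7.81 CPM in 4n-whole libraries of mice 1 to 4, higher in each mouse. In 4n-bottom it was at 5.37, 5.09, 6.73 and 8.12 CPM, and in 4n-top libraries of mice 2 to 4 at 6.46, 8.83 and 6.41 CPM. Between 4n-top and 4n-bottom mice 2 and 3 were higher in 4n-top and mouse 4 was lower (0.32, 0.37 and -0.32 on the log2(CPM + 0.5) scale), and between 4n-bottom and 2n-whole mouse 2 was lower and the other 3 mice higher. All 3 of the 4n-top values were above all 4 of the 2n-whole values, by a narrow margin (6.41 against 6.19 CPM). Groups did not overlap in this comparison in 9.21% of all tested genes, and in 4.82% with 4n-top higher. The log2 fold change was 0.27 (SE 0.191) in 4n-whole against 2n-whole, 0.26 (SE 0.21) in 4n-top against 2n-whole and 0.11 (SE 0.21) in 4n-top against 4n-bottom. Snx21, on the opposite strand at the same locus, was at 5.45 ± 1.23 CPM in 2n-whole and 7.0 ± 1.96 CPM in 4n-whole (SD, n = 4 each), and its part in the Acot8 values was not tested.

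Acot9 and Acot13 encode thioesterases associated with mitochondria. Acot9 had the lowest tetraploid levels relative to diploid cells. Its level was 1.87, 3.5, 2.4 and 4.02 CPM in 2n-whole and 1.85, 2.12, 0.853 and 0.948 CPM in 4n-whole libraries of mice 1 to 4. Each mouse was lower in 4n-whole, but the difference on the log2(CPM + 0.5) scale was -0.01 in mouse 1 and -1.64 in mouse 4, so the size of the difference was uneven. In 4n-bottom libraries Acot9 was at 1.94, 1.06, 1.34 and 1.63 CPM and in 4n-top libraries of mice 2 to 4 at 1.8, 1.56 and 2.3 CPM. The log2 fold change was -1.05 (SE 0.387) in 4n-whole against 2n-whole, -0.97 (SE 0.384) in 4n-bottom against 2n-whole, -0.61 (SE 0.416) in 4n-top against 2n-whole and 0.36 (SE 0.425) in 4n-top against 4n-bottom. These rest on 30 to 140 counts per library. The summed biliary markers and the summed Kupffer cell markers (median 5.51 CPM in 2n-whole and 1.19 CPM in 4n-whole) were also higher in 2n-whole, and their part in the Acot9 values was not tested.

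Acot13, a small thioesterase of the hotdog-fold class, was at 28.5, 26.4, 13.8 and 31.5 CPM in 2n-whole and at 19.0, 17.9, 16.36 and 20.8 CPM in 4n-whole libraries. Mice 1, 2 and 4 were lower in 4n-whole and mouse 3 was higher. The log2 fold change was -0.39 (SE 0.132) in 4n-whole against 2n-whole. With 1 mouse left out it was -0.318 without mouse 1, -0.331 without mouse 2, -0.585 (SE 0.143) without mouse 3 and -0.32 without mouse 4. Between 4n-top and 4n-bottom it was -0.11 (SE 0.146). Tdp2, which overlaps it on the opposite strand, was at 17.8 ± 2.51 CPM in 2n-whole and 18.5 ± 1.58 CPM in 4n-whole (SD, n = 4 each).

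Acot12 encodes the cytosolic acetyl-CoA hydrolase of liver. Its levels were the most even of the 8 genes across populations, with means of 59.2 ± 8.82 CPM in 2n-whole, 52.9 ± 11.0 in 4n-whole and 58.9 ± 8.94 in 4n-bottom (SD, n = 4 each), and values of 46.6, 66.4 and 61.9 CPM in the 4n-top libraries. The log2 fold change was -0.17 (SE 0.108) in 4n-whole against 2n-whole and -0.02 (SE 0.119) in 4n-top against 4n-bottom. The lowest value was 36.4 CPM in the 4n-whole library of mouse 2, and the other 4n-whole libraries were at 57.3 to 59.8 CPM.

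**Figure D4:**
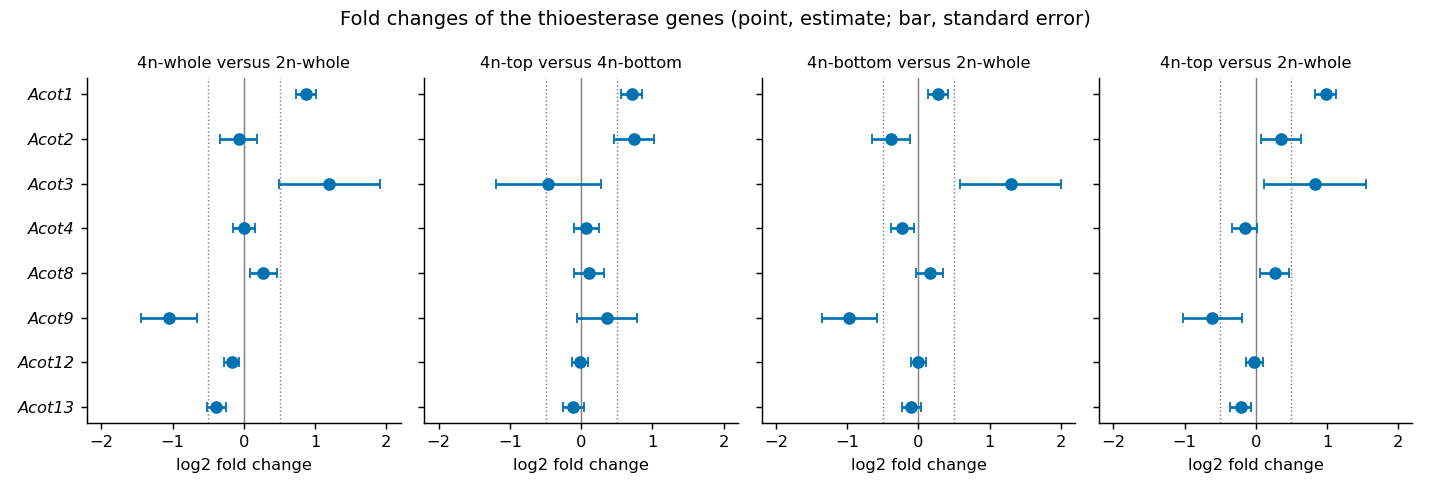
Log2 fold changes (x axis) of the 8 genes (y axis) in 4 comparisons, as estimates (points) with standard errors (bars); dotted lines mark a change of 0.5 in either direction. Acot1 lay at 0.87 in 4n-whole against 2n-whole and at 0.98 in 4n-top against 2n-whole, and Acot9 lay at -1.05 in the first of these.

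A gene was counted as called where the adjusted p was under 0.05 and the absolute log2 fold change above 0.5. Among the members this held for Acot1 in 4n-whole against 2n-whole, where 3.47% of all tested genes were called (20.4% at an unadjusted p under 0.05), and for Acot1 in 4n-top against 2n-whole, where 0.961% were (0.44% higher and 0.52% lower, and 11.3% at an unadjusted p under 0.05). No member was called in 4n-top against 4n-bottom, where 2 genes in all were (0.0114%, which is 0.00572% in each direction) and 488 (2.79%) had an unadjusted p under 0.05 by edgeR, or in 4n-bottom against 2n-whole, where 0.463% were called (0.234% higher, 0.229% lower, and 10.2% at an unadjusted p under 0.05). With DESeq2 and the same term for mouse, Acot1 was also called in 4n-top against 4n-bottom and none of the members was in 4n-bottom against 2n-whole. The members were chosen from these contrasts, so nothing is read from these counts. The median log2 fold change over the 8 members was -0.03 in 4n-whole against 2n-whole, 0.09 in 4n-top against 4n-bottom, -0.05 in 4n-bottom against 2n-whole and 0.12 in 4n-top against 2n-whole. Over all tested genes these medians were -0.01, 0.00, 0.01 and 0.00. Summed over the 8 genes, the level was 131 ± 25.5 CPM in 2n-whole and 128 ± 27.5 in 4n-whole (SD, n = 4 each). Over mice 2, 3 and 4, which gave all 4 populations, it was 138 ± 25 CPM in 2n-whole, 133 ± 31.5 in 4n-whole, 134 ± 30.2 in 4n-bottom and 145 ± 29 in 4n-top (SD, n = 3 each). Within these mice the sum in 4n-bottom and in 4n-top was 113 and 112 CPM in mouse 2, 121 and 159 CPM in mouse 3 and 169 and 166 CPM in mouse 4, so mouse 3 alone was higher in 4n-top.

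Levels of different genes were compared per kb of the canonical transcript. In 2n-whole libraries Acot13 was highest at 34.1 ± 10.6 CPM per kb, then Acot12 at 13.1 ± 1.95, Acot1 at 5.77 ± 3.57, Acot8 at 4.76 ± 0.63, Acot4 at 3.3 ± 1.42, Acot9 at 1.67 ± 0.56, Acot2 at 1.45 ± 0.568 and Acot3 at 0.209 ± 0.237 (SD, n = 4). With this length Acot13 stood apart from the genes below it and Acot3 from those above. The lowest Acot12 value and the highest Acot1 value were both 10.9 CPM per kb, so these 2 genes were not clearly apart. The genes from Acot1 to Acot2 each overlapped the next in the order. Acot1 and Acot12 overlapped in the other 3 populations, with means of 10.5 and 11.7 CPM per kb in 4n-whole and, without mouse 1, of 12.9 ± 5.53 and 12.9 ± 2.29 in 4n-top (SD, n = 3). The order depends on the length used. With the length of all annotated exons, Acot13 came to 14.9 and Acot12 to 11.5 CPM per kb in 2n-whole, a much smaller gap. In 4n-top Acot13 came to 12.3, Acot12 to 11.3 and Acot1 to 7.51 CPM per kb. With that length Acot8 came to 0.67 CPM per kb in 2n-whole, below Acot2 at 1.45.

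The spread between mice was larger than that between populations for 7 of the 8 members. For each gene the range over the 4 mice and the range over the 4 populations were taken from the fitted model on the log2 scale. Over all tested genes the median was 0.67 for mice and 0.474 for populations. It was also larger for mice in every list of related enzymes described below, as in the mitochondrial list (0.379 and 0.153). A larger range over mice was thus not particular to the members. The share of all genes with a larger range over mice was not counted. The range over mice was 2.93 for Acot3, 1.89 for Acot1, 1.69 for Acot2 and 1.53 for Acot4, the 4 members in the cluster, each above the 75th percentile of all genes. It was 1.72 for Acot6, a tested gene of the cluster that is no member (80.4th percentile). For Acot13, Acot12, Acot9 and Acot8 it was 0.756, 0.502, 0.474 and 0.471. The range over populations was 1.29 for Acot3, 1.05 for Acot9, 0.98 for Acot1, 0.741 for Acot2 and 0.171 to 0.386 for the others. Acot9 was the only member whose populations differed more than its mice.

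**Figure D5:**
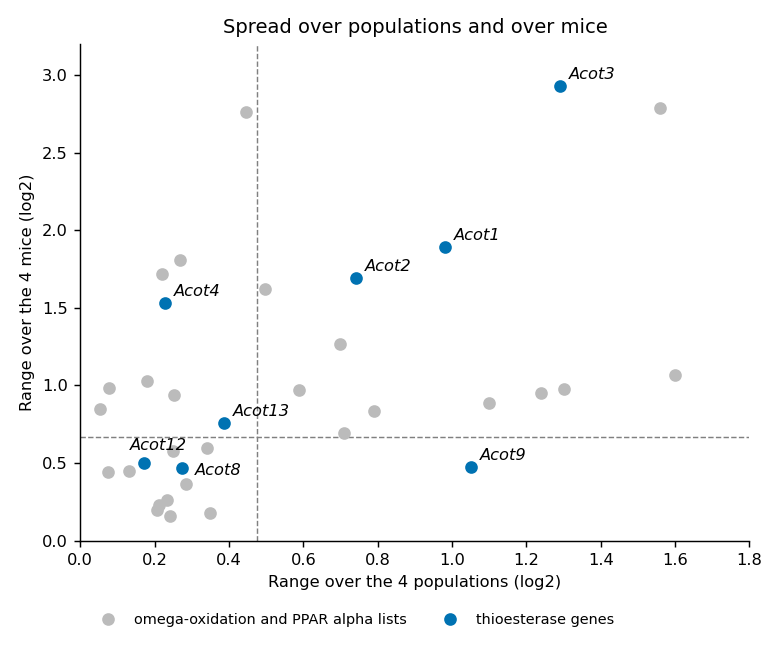
Each point is a gene, placed by its log2 range over the 4 populations (x axis) and over the 4 mice (y axis); blue, the thioesterases; grey, genes of the omega-oxidation and PPAR alpha lists; dashed lines, medians over all tested genes (0.474 and 0.67). Acot1, Acot2, Acot3 and Acot4 lie at 1.53 or more on the y axis.

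The mice did not rank the clustered genes alike. Over the 3 populations that all 4 mice gave, Acot1 averaged 8.84, 11.9, 16.3 and 33.8 CPM in mice 1 to 4, a 3.82-fold span. Acot2 averaged 2.17, 3.88, 1.62 and 5.79 CPM, so mouse 3 was lowest for Acot2 and second highest for Acot1. Acot4 was lowest in mouse 1 (9.66 CPM) and highest in mouse 3 (26.1 CPM). Mouse 4 was highest for Acot1, Acot2, Acot8, Acot12 and Acot13. It was also highest for Cyp4a14 (642 CPM against 93.2 to 141 in mice 1 to 3) and for Cyp4a10 (572 CPM against 166 to 266), fatty acid omega-hydroxylases and known PPAR alpha targets, which were picked after their values were seen. Other omega-hydroxylases were mixed. Mouse 4 was highest for Cyp4a31, Cyp4a32, Cyp4f13 and Cyp4f15, and mouse 2 for Cyp4f14. Mouse 4 was lowest for Cyp4a12a (112 CPM against 183 to 338) and Cyp4a12b (69.9 CPM against 73.2 to 107). In the list of mitochondrial fatty acid entry and beta-oxidation, mouse 4 was highest for every gene but Acads, as for Acadm (380 CPM against 282 to 337). This rank was thus not particular to the members or to the genes picked. Of the 13 omega-oxidation genes 3 had a range over mice above the 75th percentile of all genes (Cyp4a14, Cyp4a10 and Cyp4a12a), and of the 14 tested genes in the PPAR alpha list 2 did, against 4 of the 8 members.

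The genes around the thioesterase reaction were read from lists of related enzymes, with p-values of the edgeR quasi-likelihood F test, Benjamini-Hochberg adjusted over the 17488 genes. The share of all genes called in 4n-whole against 2n-whole was 1.74% higher and 1.73% lower. Of the 12 other thioesterases listed, 9 were tested and none was called in either direction, with none at an unadjusted p under 0.05 by edgeR, and none was called by DESeq2. The smallest p was that of Ppt1, the lysosomal palmitoyl-protein thioesterase (log2 fold change -0.31, SE 0.149, adjusted p = 0.25). Acot5 had at most 5 counts in any library and Acot10 at most 2. The acyl-CoA synthetases, which run the opposite reaction, had 0 called higher and 2 lower of 17 tested. These were Acss3, which activates short-chain acids in mitochondria (-0.62, SE 0.118, adjusted p = 0.0018), and Acsl3, which activates long-chain acids at the endoplasmic reticulum and lipid droplets (-0.57, SE 0.161, adjusted p = 0.034). Acsl3 missed the thresholds without mouse 2 (-0.347, adjusted p = 0.24) and without mouse 4 (-0.518, adjusted p = 0.2).

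Of 22 tested genes that supply, break down or bind CoA and its esters, 1 was called, Dcakd (-0.58, SE 0.131, adjusted p = 0.0082), which resembles the kinase of the last step of CoA synthesis. It was not called without mouse 4 (-0.52, adjusted p = 0.13). None of the 18 genes of mitochondrial fatty acid entry and beta-oxidation was called by edgeR or by DESeq2, with 3 at an unadjusted p under 0.05, and the smallest p was that of Hadhb, a subunit of the trifunctional protein (-0.36, SE 0.108, adjusted p = 0.05). In the peroxisomal list 2 of 17 genes were called, both higher. Acaa1b (0.60, SE 0.0884, adjusted p = 7.7e-05) and Acaa1a (0.57, SE 0.105, adjusted p = 0.0012) encode the peroxisomal thiolases of the last step of beta-oxidation. Acaa1a fell short of the limit on fold change without mouse 2 (0.491) and without mouse 4 (0.476). The coding sequences of such thiolase copies are alike, and how their shared reads were counted is not given in the sources used here.

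In the omega-oxidation list 1 of 13 tested genes was called higher and 2 lower. Aldh3a2, the fatty aldehyde dehydrogenase, rose by 1.60 (SE 0.226, adjusted p = 4e-05), while the fatty acid hydroxylases Cyp4a12b (-0.71, SE 0.106, adjusted p = 8e-05) and Cyp4a31 (-0.56, SE 0.165, adjusted p = 0.043) were lower. Cyp4a31 was not called when mouse 2, 3 or 4 was left out (adjusted p = 0.14, 0.057 and 0.44) or without the filter on low counts (0.06). In the list of PPAR alpha and its targets outside these pathways 1 of 14 was called higher and 3 lower. Pdk4, the kinase that turns off pyruvate dehydrogenase, rose by 0.79 (SE 0.181, adjusted p = 0.0093). Cd36, a fatty acid transporter (-1.15, SE 0.204, adjusted p = 0.00084), Ppargc1a, a coactivator (-0.59, SE 0.129, adjusted p = 0.0068), and Ucp2, a mitochondrial carrier (-1.10, SE 0.321, adjusted p = 0.042), were lower. Fold changes of markers of other liver cells were mostly negative as well, with a median log2 fold change of -0.743 over 10 endothelial genes (8 negative, 1 called, Ptprb) and of -2.46 over the 6 tested Kupffer cell genes (6 negative, 0 called by edgeR or DESeq2, 2 at an unadjusted p under 0.05 by edgeR), and their part in the Cd36 and Ucp2 values was not tested. Without mouse 4, Pdk4 (adjusted p = 0.073), Ppargc1a (0.14) and Ucp2 (0.24) were not called, and Ucp2 was not without mouse 2 (0.12) or mouse 3 (0.1).

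In 4n-top against 4n-bottom no gene of these 7 lists was called by edgeR or by DESeq2. By edgeR only 0.0114% of all tested genes were called (2.79% at an unadjusted p under 0.05), so nothing is read from this. Fold changes were positive for 15 of 17 peroxisomal, 15 of 18 mitochondrial, 10 of 13 omega-oxidation and 12 of 14 PPAR alpha list genes. They were positive for 13 of 17 synthetases, 15 of 22 CoA list genes and 3 of 9 other thioesterases, against 50.2% of all genes. These directions were not tested. By edgeR, unadjusted p values under 0.05 were found for 2 genes of the peroxisomal list, 2 of the omega-oxidation list, 1 of the PPAR alpha list, 1 of the CoA list and 0 of the other 3. The genes with the smallest p were Ehhadh, the peroxisomal bifunctional enzyme (log2 fold change 0.25, SE 0.101), Cyp4a14 (0.43, SE 0.148), Ppargc1a (-0.36, SE 0.143), Ppcs, of CoA synthesis (0.39, SE 0.159), Eci2, an enoyl-CoA isomerase (0.19, SE 0.107), Acsm5, a medium-chain synthetase (0.17, SE 0.0965), and Them5, a mitochondrial thioesterase (2.53, SE 2.02), each with an adjusted p of 1.0 by edgeR.

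Among all tested genes, those most like each member across libraries were found by Pearson's r of log2 CPM with the mouse effect removed, over 15 libraries that share their populations, sorting and depth. For Acot1 these were Csad, the decarboxylase of taurine synthesis (r = 0.976), Afmid, of tryptophan breakdown (0.93), and Mettl3, an RNA methyltransferase (0.926). With the mouse effect left in, r was 0.768 for Csad and 0.145 for Mettl3. Csad was at 80.5 ± 30 CPM in 2n-whole, 181 ± 62 in 4n-whole and 113 ± 48.6 in 4n-bottom (SD, n = 4 each) and 217 ± 36.4 in 4n-top (SD, n = 3). For Acot12 the nearest genes were Pter (0.954), F5, coagulation factor V (0.948), and Ywhaq (0.946). For Acot13 they were Ndufa3, a subunit of respiratory complex I (0.895), Iyd (0.893) and Opa1, which fuses inner mitochondrial membranes (0.883). The nearest genes of the other members were Arhgap4, Npm2 and Rpap3 for Acot2 (0.813 to 0.82), 1700007F19Rik, Gm32880 and Dync1li1 for Acot3 (0.891 to 0.909), Rnf14, Samd4 and Rgs7bp for Acot4 (0.823 to 0.828), Znhit1, Smlr1 and Gm19221 for Acot8 (0.875 to 0.884) and Ankrd26, Btbd3 and 5031434O11Rik for Acot9 (0.848 to 0.874). Several of these did not stay alike with the mouse effect left in, where r was 0.038 for Npm2, 0.057 for Rgs7bp and 0.184 for Znhit1. Between members, r was 0.622 for Acot1 with Acot8, -0.626 for Acot1 with Acot13, 0.556 for Acot12 with Acot13 and 0.476 for Acot1 with Acot2.

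Markers of the position of hepatocytes along the lobule moved with the populations as well. All 10 pericentral markers were called higher in 4n-whole than in 2n-whole, and their summed level was 598 to 895 CPM in 2n-whole, 929 to 3190 in 4n-whole, 917 to 2250 in 4n-bottom and 950 to 3420 in 4n-top. Of 10 periportal markers 3 were called lower in 4n-whole. In 4n-top against 4n-bottom no periportal marker was called by edgeR, with 4 at an unadjusted p under 0.05, and all 10 fold changes were negative. The pericentral markers were split, with 6 positive and 4 negative, and 6 had an unadjusted p under 0.05 by edgeR. Only Glul was called (-0.897), which was lower in 4n-top and is named after its value was seen. Slc1a2 (-1.08) was also lower, while Rgn (0.862), Cyp2e1 (0.724) and Cyp1a2 (0.599) were higher. By DESeq2 no periportal and 2 pericentral markers were called. Without mouse 2, 3 pericentral markers were called higher and 2 lower, and 1 periportal marker lower. Without mouse 3 or mouse 4 no pericentral marker was called by edgeR, with 6 at an unadjusted p under 0.05 each time. Without the term for mouse, 3 of the 10 were called higher in 4n-whole than in 2n-whole and no periportal marker was called. Across libraries, with the mouse effect removed, Acot1 correlated with the pericentral markers at a median r of 0.75 (0.37 to 0.9) and with the periportal ones at -0.69 (-0.86 to 0.11). The pericentral median was 0.58 for Acot8 and 0.5 for Acot3, -0.59 for Acot9 and -0.53 for Acot13, and between -0.12 and 0.19 for Acot2, Acot4 and Acot12. From 4n-bottom to 4n-top the pericentral sum and Acot1 were both higher in mouse 3 (1940 and 3420 CPM, with Acot1 at 16.8 and 30.6 CPM) and in mouse 4 (2250 and 3020 CPM, with Acot1 at 29.2 and 41.5 CPM). In mouse 2 the pericentral sum was 917 and 950 CPM and Acot1 11.3 and 16.37 CPM. Cyp2e1 weighs most in this sum, with means of 751 CPM in 4n-bottom (4 mice) and 1420 CPM in 4n-top (3 mice). Glul had means of 119 and 65.2 CPM in these populations, so the sum does not stand for every marker. The part of lobular position in the thioesterase values was not tested.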

How the data were processed

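RNA from sorted hepatocytes was made into libraries with the SMART-Seq Stranded kit. The authors deposited raw counts per gene symbol. Per the labels, reads were aligned to GRCm39 with STAR 2.7.11a and counted with featureCounts of Subread. The annotation, the strand setting and the handling of read pairs and multi-mapping reads are not given in the sources used here. Among counts of 1 to 10, 74.2% to 81.4% were even, so both mates of a pair may have been counted, and counts then overstate fragments.

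Populations were compared with edgeR 4.0.16 (R 4.3.3) by quasi-likelihood F tests on all 15 libraries, with TMM scaling, filterByExpr at its default values (minimum count of 10) and terms for population and mouse, and p-values were Benjamini-Hochberg adjusted over 17488 genes. The number in a label is that of the mouse, so libraries of the same number come from the same animal. Their deviations from the population means correlated at 0.084 to 0.227 (21 pairs). No 2 libraries of a population agreed within sampling noise. The fit was tested on simulated data for 4n-whole against 2n-whole, and no other comparison was scored. The counts were drawn from the fitted model itself, with the spread set by its trend over level. The real data can vary more from gene to gene, so their share of false calls may differ. It called 19 of 47 genes changed by a log2 fold change of 0.7. It called 32 of 47 at 1, 33 of 47 at 1.5 and 38 of 47 at 2, and 1 of 15667 unchanged genes. A gene that was not called may therefore still differ. Differences per mouse used log2(CPM + 0.5). Likeness used limma 3.58.1 to remove the mouse effect. Coding sequences were aligned with Biopython 1.88, and coordinates, transcripts and sequences came from GRCm39 and GENCODE M39.

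Alternatives were no mouse term, DESeq2 1.42.0 size factors or test, ComBat-seq (sva 3.50.0) followed by DESeq2, no filter, Acot1 and Acot2 summed, and each mouse left out. The genes named were the 8 members, the called genes with the smallest p in each list (at most 3 per direction) in 4n-whole against 2n-whole and in 4n-top against 4n-bottom, or else the gene with the smallest p, and the 3 genes most like each member. Members and lists were chosen with earlier results of these data known. The SE of a fold change covers variation between libraries as well as counting error.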

Additional observations from a re-analysis of the deposited data

Results flagged for a closer look

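Among the 24 groups of 4 libraries tested for an extreme value (8 genes in 3 populations), 1 held one: Acot12 in the 4n-whole library of mouse 2, at 36.4 CPM, while the nearest of the other libraries was at 57.3 CPM. Chance flags about 1 in 20 such groups, which is 1.2 of 24.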

How the results depend on the processing

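Against 607 genes called in 4n-whole versus 2n-whole, the fit without the term for mouse, which leaves out the pairing of libraries by animal, called 40, and ComBat-seq followed by DESeq2 called 1158. In 4n-top versus 4n-bottom the count of 2 became 0 without the mouse term (335 at an unadjusted p under 0.05 by edgeR), 49 by DESeq2, 25 without the filter and 18 by ComBat-seq with DESeq2. In 4n-bottom versus 2n-whole 81 became 0 (866 at an unadjusted p under 0.05 by edgeR), 143, 145 and 283 in the same order, and in 4n-top versus 2n-whole 168 became 2, 329, 261 and 550. Leaving out each mouse gave 244 (without mouse 4) to 1025 (without mouse 3), with 365 without mouse 2, in the first comparison, 0 (without mouse 3 or 4) to 29 (without mouse 2) in the second, 49 (without mouse 4) to 111 in the third and 98 (without mouse 4) to 238 in the fourth. The cause was not tested. Acot1 was called in 9 of 10 alternatives in 4n-whole and in 4n-top versus 2n-whole, the exception being the fit without the mouse term, and in 4 of 10 in 4n-top versus 4n-bottom. Its log2 fold change ranged over 0.69 to 0.93, 0.81 to 1.16 and 0.59 to 0.88. Acot9 was called in 4n-whole versus 2n-whole by ComBat-seq with DESeq2 and Acot13 without mouse 3. Of 316 log2 fold changes of members under alternatives, 306 moved by less than the SD of the differences per mouse. The other 10 moved further, 7 of them for Acot3. These counts regard the size of the fold change alone, not whether a member was still called. Of 120 values of called genes of other lists 94 were still called and 26 were not, 12 of these without the mouse term. No called value changed sign. Acot3 and Acot9 rest on few counts, so depth limits what their values can show.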
